A study of Mus musculus with 14 samples.

Results

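The H2A.Z peak lists of E12.5 embryonic epithelium were compared with those of adult enterocytes, both from mouse small intestine. The comparison takes 4 of the 8 deposited lists, 2 per stage, on chromosomes 1 to 19. Peaks of the 4 lists that overlapped or touched were merged, which gave 33894 regions, and a list held a region when it had at least 1 peak in it. The series holds 14 samples, of which 8 are H2A.Z immunoprecipitates and 6 are input DNA. Its other stages are E14.5 epithelium and adult Lgr5+ intestinal stem cells (ISC), whose lists are used below only to look up the regions found here.

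All mice were of a mixed C57BL/6 and CD1 background. The E12.5 cells were sorted from embryos as positive for EpCAM, a surface protein of epithelial cells, and negative for CD31 (endothelium), CD45 (blood cells) and the dead-cell dye DAPI. The enterocytes came from male mice 2 months old (P60) that carried the Lgr5EGFP-Cre-ERT allele, and were sorted with the same markers. The labels name no marker of enterocytes in that sort, so any EpCAM+ epithelial cell of the preparation could enter it, and they give no sex for the embryos. The 2 libraries of a stage are called biological duplicates, but no label says that they came from separate animals. The p-values below therefore measure only the spread between these libraries. The lists name no genes, so the labelled cell types were not checked against marker genes, and regions are given by their position on the mm9 build.

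H2A.Z is a variant of the core histone H2A that is placed into nucleosomes by dedicated exchange complexes. It is found beside the start sites of many genes and at enhancers, and has been linked both to genes in use and to genes held ready for use. The E12.5 epithelium is a layer of dividing progenitors that has not yet formed villi. Enterocytes are the absorptive cells of the adult villus, which have left the cell cycle and are renewed from the stem cells of the crypt.

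Sequencing depth was alike in the 4 libraries, at 35261834 and 38511645 tags at E12.5 and 37938260 and 41274126 tags in enterocytes. Enterocyte replicate 1 stood apart in its processing. The peak caller MACS estimated a fragment size of 67 bp for it, close to the tag length of 68 bp, against 216 and 204 bp in the E12.5 libraries and 196 bp in enterocyte replicate 2. Its peaks were narrow, with a median width of 391 bp against 797, 738 and 836 bp. Its highest −log10 q, the evidence of a peak against input, was 7.92, while the other lists reached 25.9 to 33.6. Both enterocyte libraries were called against 1 shared input, and each E12.5 library against its own. Results that compare the stages are also given without enterocyte replicate 1, and the single library left then stands for enterocytes.

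E12.5 epithelium had 25461 and 21661 peaks and enterocytes had 14113 and 20132. Both E12.5 lists were longer than both enterocyte lists. The means were 23561 ± 2687 and 17122.5 ± 4256 peaks (SD, n = 2 each), and the exact two-sided permutation p of 0.333 is the smallest that 2 against 2 libraries allow. The difference of enterocyte replicate 2 alone from the E12.5 mean was -3429 peaks. Peaks covered 23.0 and 17.9 Mb at E12.5 and 6.95 and 19.2 Mb in enterocytes, so the stages overlapped in covered sequence (exact permutation p = 0.667). Median peak width overlapped as well, with 767.5 ± 41.7 bp at E12.5 and 613.5 ± 315 bp in enterocytes (SD, n = 2 each, exact permutation p = 1). Without enterocyte replicate 1 the sign of that difference changed, as the median of enterocyte replicate 2 lay 68.5 bp above the E12.5 mean.

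H2A.Z regions present at E12.5 and not in enterocytes outnumbered the reverse. Both E12.5 lists and neither enterocyte list had a peak in 6284 regions, 18.5% of all (95% Wilson interval 18.13 to 18.96%). Both enterocyte lists and neither E12.5 list had a peak in 1163 regions, 3.43% of all (3.24 to 3.63%). All 4 lists had a peak in 9565 regions, 28.2% of all. These groups are called E12.5-only, enterocyte-only and shared regions below. The intervals cover counting error only, and a missing peak means that none was called at the authors' threshold, not that H2A.Z was absent. Fewer cells with H2A.Z at a region and less H2A.Z in every cell cannot be told apart in these bulk libraries.

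**Figure D1:**
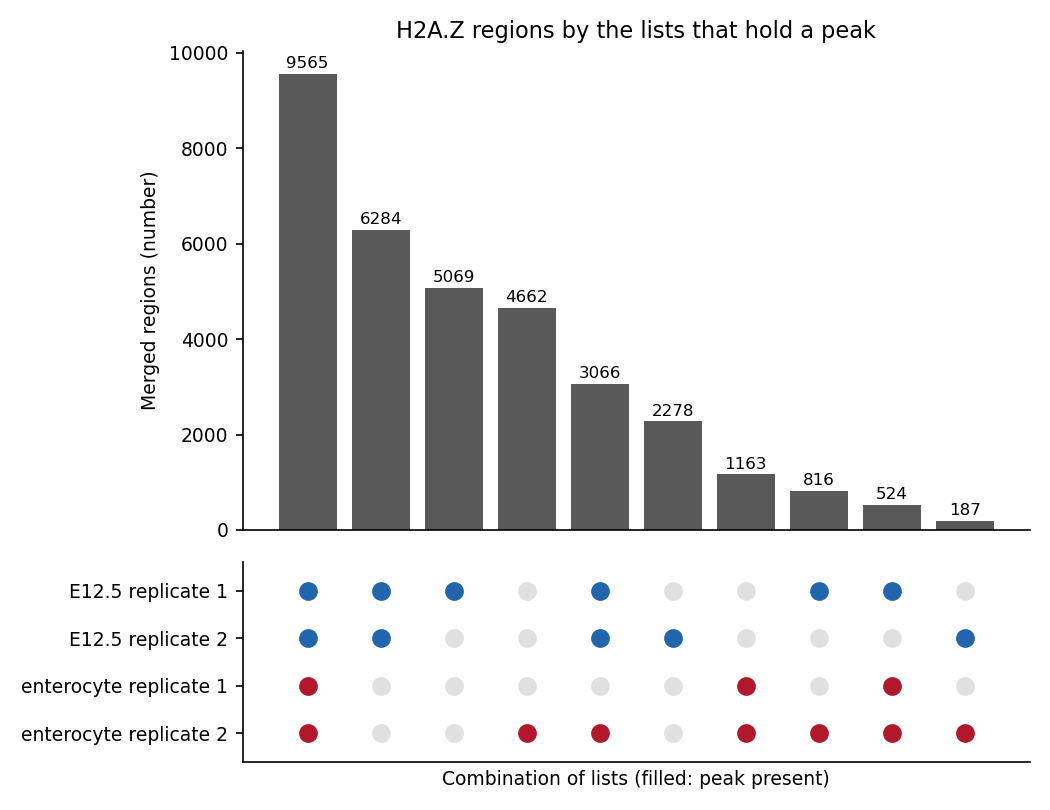
Number of merged regions (vertical axis) for the 10 most frequent of 15 combinations of lists, with filled dots under each bar for the lists that had a peak. The shared regions (9565) and the E12.5-only regions (6284) are the largest groups, followed by the regions of E12.5 replicate 1 alone (5069) and of enterocyte replicate 2 alone (4662).

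The remaining regions were split within a stage. E12.5 replicate 1 was the only list with a peak in 5069 regions and E12.5 replicate 2 in 2278. Enterocyte replicate 2 was the only one in 4662 and enterocyte replicate 1 in 154. Nearly all regions of enterocyte replicate 1 were nested in those of its replicate, which held 98.3% of them, while the reverse share was 56.5%. E12.5 replicate 1 held 88.1% of the regions of E12.5 replicate 2, and the reverse share was 74.7%. The Jaccard index, the regions in both lists over the regions in either, was 0.679 within E12.5 and 0.559 within enterocytes. Between the stages it lay from 0.378 to 0.450, below both.

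The size of this excess depended on enterocyte replicate 1 and on the length of the lists. With that list left out, the other 3 formed 33740 regions, of which 6317 (18.7%) were in both E12.5 lists and not in enterocyte replicate 2. Regions of enterocyte replicate 2 with no E12.5 peak then numbered 5825 (17.3%), and 12631 (37.4%) were in all 3 lists. The 2 sides are not matched in that count, since the E12.5 side asks for 2 lists and the enterocyte side for 1. Each list was also cut to its 14113 strongest peaks by p, which is the length of the shortest list. The cut lists formed 20507 regions, of which 2771 (13.5%) were E12.5-only and 1716 (8.37%) enterocyte-only. Lists of equal length bring both sides towards balance by construction. A weaker peak of the other stage, below that cut, lay in 788 (28.4%) of the 2771 and in 832 (48.5%) of the 1716. That left 1983 E12.5 and 884 enterocyte regions for which the uncut lists of the opposite stage held nothing.

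The regions of 1 stage were narrower and lower in their lists than the shared ones. The median width was 704 bp for E12.5-only, 737 bp for enterocyte-only and 1453 bp for shared regions, and joining the peaks of more lists widens a region by construction. They covered 5.07, 1.00 and 14.7 Mb. To place a peak within its list, the fold enrichment over background that MACS wrote for it was ranked from 0 (lowest) to 100 (highest). E12.5-only regions had a median percentile of 41.6 and 36.9 in the E12.5 lists, where shared regions had 74.5 and 68.5. Enterocyte-only regions had 31.5 and 46.3 in the enterocyte lists, where shared regions had 60.4 and 74.5. Without enterocyte replicate 1 the median widths were 704, 452 and 1376 bp, in the same order, and the covered lengths 5.10, 3.33 and 18.3 Mb. The close widths of E12.5-only and enterocyte-only regions were thus not seen then. In enterocyte replicate 2 the median percentile was then 25.2 for enterocyte-only and 66.1 for shared regions.

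Some E12.5-only regions were nevertheless among the strongest peaks of their lists. The 10 with the highest percentile in both E12.5 lists had a fold of 6.06 to 7.97 in E12.5 replicate 1 and 4.86 to 6.65 in E12.5 replicate 2. The first was chr14:62911225-62912234, with a fold of 7.77 and 5.80 in the E12.5 lists and a peak in all 4 lists of E14.5 epithelium and ISC. The region chr7:64641891-64642916 had 7.03 and 6.65, and chr8:10153671-10154405 had 7.97 and 5.70. At chr1:15882437-15883239 the E12.5 folds were 6.65 and 5.94, and both ISC lists had a peak there, with 4.83 and 5.63. The region chr1:17717079-17718123 had 6.36 and 5.02 at E12.5 and no peak in either ISC list. All 10 had a peak in E14.5 replicate 1, 8 in E14.5 replicate 2, 8 in ISC replicate 1 and 9 in ISC replicate 2. In the same order, the shares over all E12.5-only regions were 47.0%, 8.75%, 43.8% and 50.8%. Over all 33894 regions they were 46.8%, 15.7%, 64.3% and 67.6%. The 10 were picked for their strength, so their counts do not stand for E12.5-only regions in general.

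The enterocyte-only regions named in the same way showed another pattern in the lists of the other stages. The 10 with the highest percentile in both enterocyte lists had a fold of 4.89 to 5.86 in enterocyte replicate 1 and 4.99 to 6.26 in enterocyte replicate 2. The region chr7:52241185-52243290 had 5.86 and 5.91, with peaks of 1215 and 2106 bp. The region chr2:30555525-30556019 had 5.24 and 6.26, and chr1:9933602-9934867 had 5.50 and 5.64. All 10 had a peak in both ISC lists, with a fold of 2.92 to 4.28 in ISC replicate 1 and 2.82 to 4.20 in ISC replicate 2. None of the 10 had a peak in either E14.5 list. Over all enterocyte-only regions the shares were 87.3% and 85.2% in the ISC lists and 9.54% and 0.602% in the E14.5 lists. These 10 thus lay near their group. Over all 33894 regions the shares were 64.3% and 67.6% in the ISC lists and 46.8% and 15.7% in the E14.5 lists. Of these 10, 4 were no longer enterocyte-only when a list had to cover at least 50% of a region, and they are chr8:23948989-23949716, chr2:29921388-29923095, chr7:142915132-142916163 and chr12:58645874-58647562.

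The share of peaks without a counterpart was lower in the strongest than in the weakest peaks of every list. Each list was split into 10 groups of equal size by the rank of fold enrichment. In the weakest group of E12.5 replicate 1, 74.98% of peaks lay in no region with an enterocyte peak, and in its strongest group 9.34% did, 238 of 2547. In E12.5 replicate 2 these shares were 60.5% and 10.3%, the latter 224 of 2167. In enterocyte replicate 1 the share with no E12.5 peak went from 16.8% to 2.34%, the latter 33 of 1412. In enterocyte replicate 2 it went from 61.0% to 1.09%, the latter 22 of 2014. The decline was not even, as the second weakest group had a higher share than the weakest in 3 lists, at 75.8% and 65.5% at E12.5 and 17.6% in enterocyte replicate 1. Both E12.5 lists thus had a higher share of unmatched peaks in their strongest group than both enterocyte lists.

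That order among the strongest peaks also held without enterocyte replicate 1 as a list to match against, with 9.42% and 10.4% in the E12.5 lists. Without enterocyte replicate 2 these shares were 20.5% and 21.5%. It held with lists of equal length, at 13.0% for each E12.5 list and 5.95% and 2.62% for the enterocyte lists. With peaks ranked by −log10 p in place of fold, the shares were 6.71% and 5.86% at E12.5 and 1.91% and 0.745% in enterocytes. With 2 libraries a stage the exact permutation p of any such order cannot go below 0.333.

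**Figure D2:**
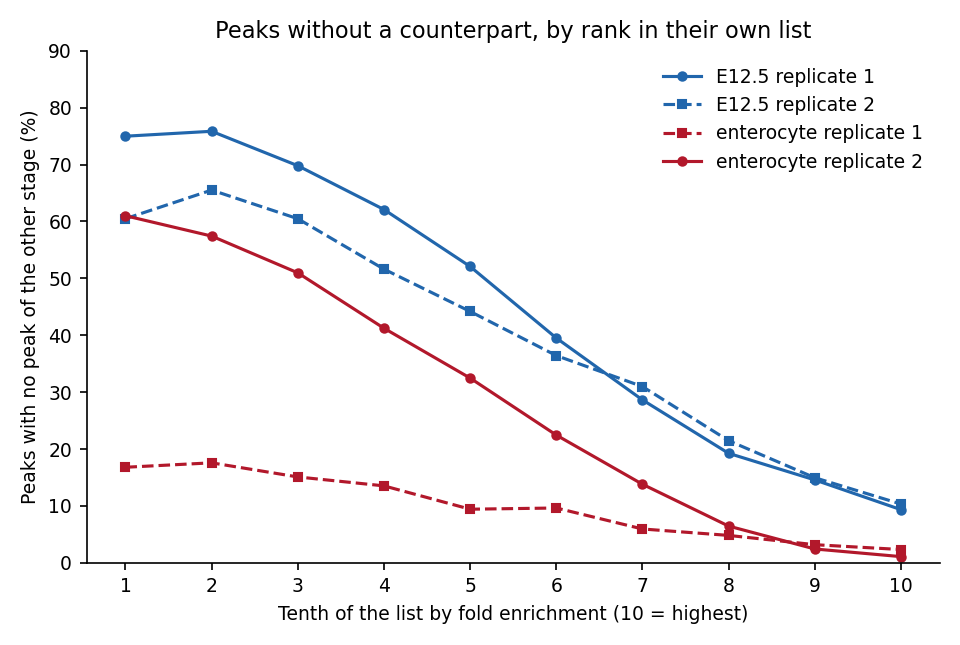
Percent of peaks whose merged region holds no peak of the other stage (vertical axis) for 10 equal groups by fold enrichment within the list (horizontal axis, lowest to highest), one line per list. In the strongest group the E12.5 lists stand at 9.34% and 10.3% and the enterocyte lists at 2.34% and 1.09%.

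The lists of E14.5 epithelium and ISC, which did not enter the grouping, showed where else each kind of region was called. Of all 33894 regions, 60.8% had a peak in both ISC lists, 46.8% had one in E14.5 replicate 1 and 15.7% in E14.5 replicate 2. Enterocyte-only regions had a peak in both ISC lists in 931 of 1163 (80.1%) and in E14.5 replicate 1 in 111 (9.54%, 95% Wilson interval 7.99 to 11.4%). E12.5-only regions had a peak in both ISC lists in 2479 of 6284 (39.4%) and in E14.5 replicate 1 in 2954 (47.0%, 45.8 to 48.2%). E14.5 replicate 2, a short list with a fragment size of 71 bp, had a peak in 550 (8.75%) of the E12.5-only and 7 (0.602%) of the enterocyte-only regions, both below its share over all regions. Shared regions had a peak in E14.5 replicate 1 in 93.3% and in each ISC list in 99.8%. The ISC libraries were longer lists, so their shares and those of E14.5 libraries are not on one scale, and each is read against its own share over all regions.

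**Figure D3:**
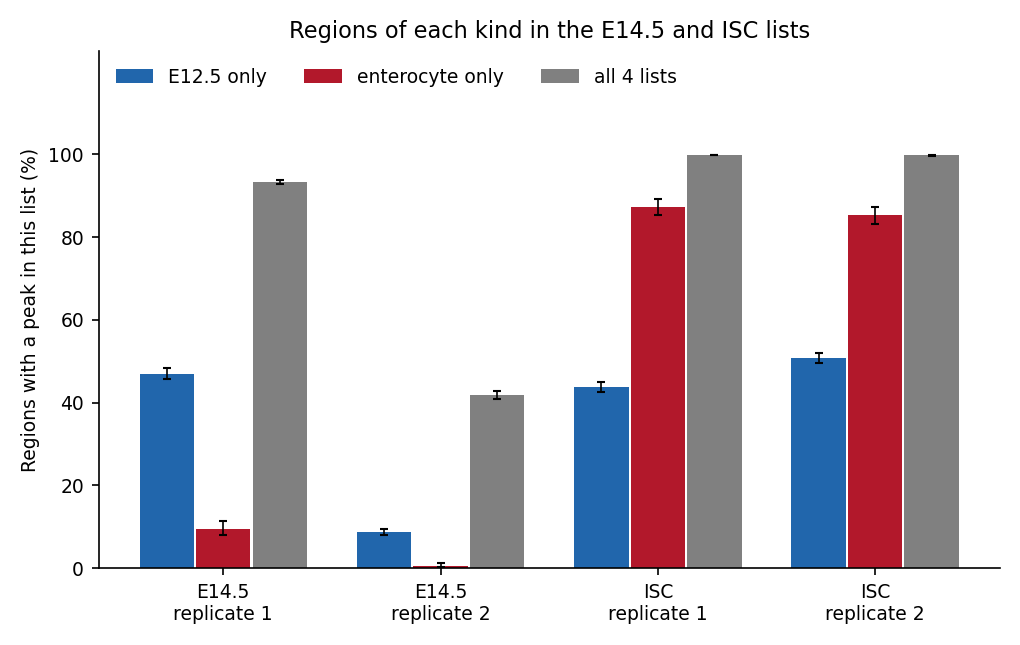
Percent of regions with a peak in each of the 4 lists that did not enter the grouping (vertical axis), for E12.5-only, enterocyte-only and shared (all 4 lists) regions, with 95% Wilson intervals as error bars. Enterocyte-only regions stand at 87.3% and 85.2% in the ISC lists and at 9.54% and 0.602% in the E14.5 lists.

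Joined over the stages, the E12.5-only regions divided into several paths. A peak in E14.5 replicate 1 and in both ISC lists was found in 1644 (26.2%), which were the wider and stronger ones, with a median width of 938 bp and a median percentile of 62.1. A peak in E14.5 replicate 1 and in no ISC list was found in 818 (13.0%). Both ISC lists but not E14.5 replicate 1 had 835 (13.3%). A further 1998 (31.8%) had a peak in neither E14.5 replicate 1 nor any ISC list, and these were narrower, with a median width of 561.5 bp and a median percentile of 29.9. The remaining 989 (15.7%) had a peak in 1 of the ISC lists only. Of the shared regions, the first 4 paths held 93.2%, 0.0209%, 6.54% and 0.0732%. The paths were not counted over all 33894 regions. Among enterocyte-only regions the path through both ISC lists and not E14.5 replicate 1 held 826 (71.0%), and none had a peak in E14.5 replicate 1 without an ISC peak. A peak in neither was found for 88 (7.57%). The first 4 E12.5-only paths held 26.3%, 12.9%, 13.4% and 31.6% without enterocyte replicate 1, in the same order. Of the enterocyte-only regions, the path through both ISC lists and not E14.5 replicate 1 then held 49.6%, and 25.3% had a peak in neither.

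The high ISC share of enterocyte-only regions was not seen without enterocyte replicate 1. Of the 5825 regions then in enterocyte replicate 2 and neither E12.5 list, both ISC lists held 53.6% and E14.5 replicate 1 held 4.88%, so the former fell below the 60.8% over all regions while the latter stayed below its 46.8%. The E12.5-only shares were then 39.7% and 47.0%. Of the 4662 regions of enterocyte replicate 2 alone, 2193 (47.0%) had a peak in both ISC lists and 3.71% in E14.5 replicate 1. Their median width was 405 bp and their median percentile 21.0. Of the 5069 regions of E12.5 replicate 1 alone, 17.4% had a peak in both ISC lists, and of the 2278 of E12.5 replicate 2 alone 9.83% did. The regions in both E12.5 lists and enterocyte replicate 2 but not enterocyte replicate 1, 3066 in number, had a peak in both ISC lists in 94.4%.

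E12.5-only regions lay farther from shared regions than enterocyte-only ones did. The median distance to the nearest shared region was 79.4 kb for E12.5-only and 35.7 kb for enterocyte-only regions. A shared region lay within 10 kb of 7.45% of the former and of 20.6% of the latter. The median distances without enterocyte replicate 1 were 54.7 and 29.1 kb, and the shares within 10 kb 11.4% and 23.3%. By chromosome, E12.5-only regions made up 16.1% (chromosome 17) to 21.3% (chromosome 15) of all regions, and enterocyte-only regions 2.62% (chromosome 18) to 4.73% (chromosome 17). Without enterocyte replicate 1 the ranges were 16.2% (chromosome 17) to 21.4% (chromosome 15) and 14.1% (chromosome 7) to 19.9% (chromosome 13). Neighbouring regions are not independent, and no test was made on position.

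Regions of 1 stage also stood in runs, with no region of another kind between them. Runs of at least 3 numbered 304 for E12.5-only and 8 for enterocyte-only regions, and runs are more frequent in the larger group by construction. They numbered 307 and 328 without enterocyte replicate 1. The longest E12.5 runs held 7 regions. One spanned chr9:40183637-40339272, with a fold of 2.95 to 6.81 in E12.5 replicate 1 and 2.45 to 4.24 in E12.5 replicate 2. Of its regions 6 had a peak in E14.5 replicate 1 and 4 in each ISC list. Another spanned chr10:68483059-68643555, where 1 region had a peak in E14.5 replicate 1 and 2 in each ISC list. The longest enterocyte run held 5 regions within 29883 bp at chr13:23625308-23655190. Its folds were 4.07 to 4.39 in enterocyte replicate 1 and 3.40 to 4.46 in enterocyte replicate 2, both ISC lists had peaks in all 5, and E14.5 replicate 1 in 2. A run of 4 within 11544 bp lay at chr12:58636019-58647562, where both ISC lists had all 4 and the E14.5 lists 0.

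Peak length at the shared regions set enterocyte replicate 1 apart from the other lists of both stages. A list's length at a region is the summed length of its peaks there. The median over the 9565 shared regions was 1223 and 1081 bp at E12.5 and 597 and 1267 bp in enterocytes. Enterocyte replicate 2 was longer than enterocyte replicate 1 in 98.3% of shared regions, with a median ratio of 1.97. Its median ratio to the E12.5 libraries was 1.02 and 1.15, while that of enterocyte replicate 1 to them was 0.514 and 0.597. Enterocyte replicate 1 split 2308 (24.1%) of the shared regions into more than 1 peak. The other lists did so in 45 to 97 regions. Regions with at least 3 kb of peaks numbered 112 and 36 at E12.5 and 6 and 140 in enterocytes.

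**Figure D4:**
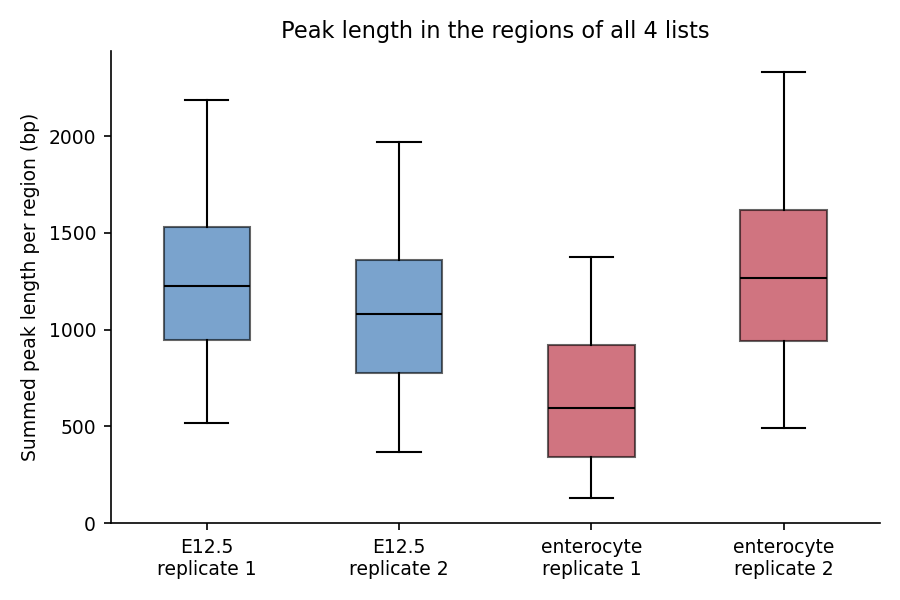
Summed peak length per shared region in base pairs (vertical axis) for each of the 4 lists, as boxes of the median and quartiles with whiskers from the 5th to the 95th percentile. Enterocyte replicate 1 has a median of 597 bp, below the 1081 to 1267 bp of the other lists.

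No shared region passed the test for a different relative length, which could miss even large changes. In simulated data with 200 changed regions, the test found 0% at a shift of 1 log2 unit, 43.5% at 2 and 98.0% at 3. The simulation gave every region the same spread within a stage, so these shares need not hold for real regions. Observed log2 differences of -3.36 at chr14:70605416-70607998 and -3.06 at chr12:62623778-62625709 were not called. The log2 length of each list was centred on its own median, and limma with Benjamini-Hochberg adjustment called 0 of 9565 regions (0.0%) at an adjusted p of 0.05, with a smallest adjusted p of 0.207. At an unadjusted limma p under 0.05 there were 1135 (11.9%). The groups did not overlap in 4801 regions (50.2%), where a random order of 2 against 2 libraries gives a share of 0.333. Without enterocyte replicate 1 the count was 0 of 12631 (0.0%), with a smallest adjusted p of 0.0773. With the rank of length in place of length it was 118 (1.23%), and with the replicate number as a block 288 (3.01%). The block fits more terms to the same 4 libraries, so its p-values rest more on the variance that limma shares across regions. The count was far higher without enterocyte replicate 2, a fit with a single enterocyte library.

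Among regions whose groups did not overlap, those with the greatest differences in relative length had a peak in every list. At chr14:70605416-70607998 the lengths were 2520 and 2498 bp at E12.5 and 117 and 294 bp in enterocytes. At chr12:62623778-62625709 they were 1932 and 1708 bp at E12.5 and 88 and 310 bp in enterocytes. In the other direction, chr5:74590150-74592157 had 454 and 214 bp at E12.5 and 1098 and 2008 bp in enterocytes. The region chr17:48547977-48550191 had 244 and 460 bp at E12.5 and 1128 and 2215 bp in enterocytes. The adjusted p of all 10 regions named by this rule was 0.207 or 0.208 with limma. All 10 were called by the rank of length, with limma adjusted p up to 0.0419. They were also called with the replicate number as a block, with limma adjusted p up to 0.000450, although the numbers do not pair the libraries. The block left the differences of these regions unchanged, so those calls are no separate evidence. The shared region with the greatest mean length, chr11:23975984-23982628, had 6428 and 3804 bp at E12.5 and 2917 and 6645 bp in enterocytes. The libraries of each stage differed there by more than the means of the stages did.

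The order of shared regions by strength differed between the stages more than within them. Fold enrichment was ranked among the 9565 shared regions in each list, so that list length did not enter. Spearman's rho across these regions was 0.554 between the E12.5 lists and 0.634 between the enterocyte lists, and 0.183 to 0.291 for the 4 pairs of lists from different stages. Over the 12631 regions of the 3 lists without enterocyte replicate 1 it was 0.569 within E12.5 and 0.347 and 0.301 between stages. The median difference in percentile was 16.7 points within E12.5, 14.7 within enterocytes and 22.6 to 24.9 between stages. The correlations are over regions of the same libraries, which are not replicates. The enterocyte lists share 1 input, which enters the fold of both.

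Of the 9565 shared regions, 688 (7.19%) changed in rank between the stages by limma on normal scores, the percentiles put on the scale of a standard normal, with an adjusted p of at most 0.05. Of these, 311 (3.25%) ranked higher in enterocytes and 377 (3.94%) higher at E12.5. The groups did not overlap in 5035 (52.6%) of the shared regions, where a random order of 2 against 2 libraries gives a share of 0.333. The test asks for a change in order within the lists and says nothing of the amount of H2A.Z. Since ranks are fixed in sum, higher and lower ranks balance by construction. Without enterocyte replicate 1 the fit called 133 of 12631 regions (1.05%), 52 (0.412%) higher in enterocyte replicate 2 and 81 (0.641%) higher at E12.5, and then the lone enterocyte library is assumed to vary like the E12.5 libraries. All 688 regions kept their direction in that fit and 61 were called again. That direction was close to fixed in advance, since the fit reuses the other lists that made the calls. When pileup, the height of the peak, was ranked in place of fold, 984 regions (10.3%) were called, among them 308 of the 688. Of the 688 regions, 649 kept their direction with pileup.

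**Figure D5:**
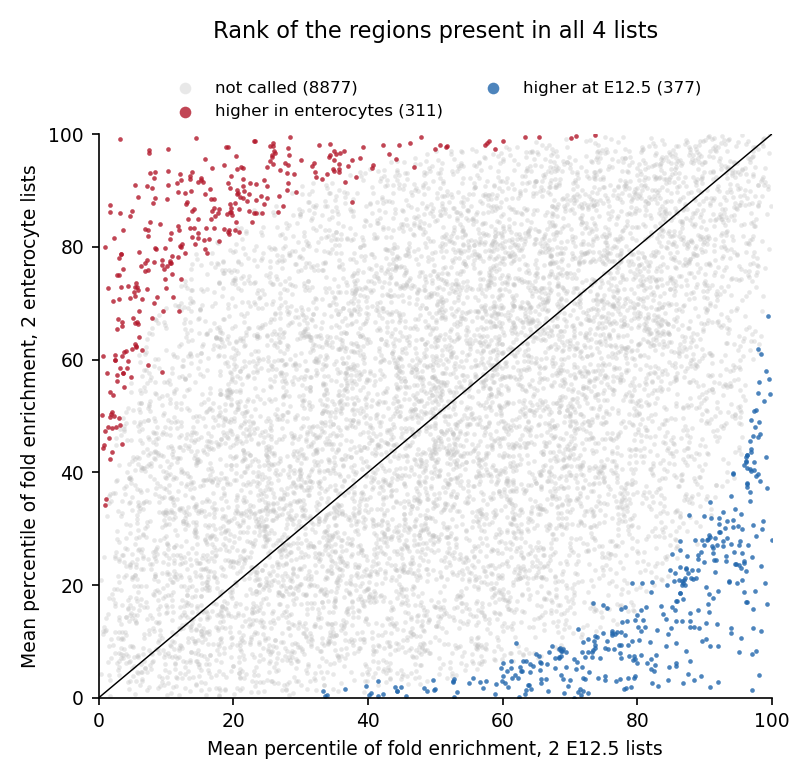
Mean percentile of fold enrichment among the shared regions at E12.5 (horizontal axis) and in enterocytes (vertical axis), one point per region, coloured by the call of the rank test, with a line where both are equal. Regions called higher in enterocytes (311) lie above the line, mostly in the upper left, and those called higher at E12.5 (377) below it, mostly in the lower right, with 8877 regions not called.

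The region with the greatest rise in rank in enterocytes was chr3:27608055-27610326. Its fold was 2.85 and 2.65 at E12.5 and 5.51 and 7.09 in enterocytes, which put it at percentiles 2.36 and 4.08 at E12.5 and 98.7 and 99.7 in enterocytes. Among the shared regions, the enterocyte values lay at the top and the E12.5 values near the bottom. Within the full E12.5 lists, which hold weaker peaks as well, they stood at percentiles 16.7 and 8.90. The difference in normal score was 4.37 ± 0.589 (SE, limma adjusted p = 0.000739), and the region stood at percentiles 86.2 and 92.7 in the ISC lists. At chr8:77632433-77634672 the percentiles were 9.92 and 19.1 at E12.5 and 99.0 and 99.7 in enterocytes, and 96.3 and 95.1 in the ISC lists. The other 3 regions named in this direction were chr17:28449808-28451134, chr15:58912326-58914263 and chr1:121544590-121545858, with differences of 3.77, 3.49 and 3.48. Without enterocyte replicate 1, the first of these had a limma adjusted p of 0.0550 and the second of 0.0505, which ended both calls.

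In the other direction, chr4:19935109-19936084 had a fold of 6.62 and 5.21 at E12.5 and 3.69 and 2.78 in enterocytes. It stood at percentiles 97.7 and 96.5 at E12.5 and 2.71 and 0.204 in enterocytes, a difference of -4.31 ± 0.598 (SE, limma adjusted p = 0.000739). The stages did not overlap, and the ISC lists placed the same region at percentiles 99.0 and 97.6. At chr17:59151913-59152859 the folds were 8.60 and 7.03 at E12.5 and 4.17 and 3.98 in enterocytes. At chr14:37781304-37782528 the percentiles were 99.0 and 97.1 at E12.5 and 7.32 and 0.873 in enterocytes, while ISC had 68.1 and 43.9. The other 2 were chr4:116861876-116862724 and chr6:96066204-96067354, with differences of -4.10 and -3.79. With pileup ranked in place of fold, 4 of these 5 were not called, and chr14:37781304-37782528 was.

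In the lists of the other stages, which the rank test did not use, the 2 sets of called regions differed in both E14.5 lists. Regions higher at E12.5 had a peak in E14.5 replicate 1 in 367 of 377 (97.3%), at a median percentile of 67.7. Regions higher in enterocytes had one in 255 of 311 (82.0%), at a median percentile of 29.8. The regions not called had 93.5% and a median of 50.0. E14.5 replicate 2 had a peak in 61.3% of the regions higher at E12.5 and in 18.0% of those higher in enterocytes, against 41.8% of the regions not called. In ISC the medians were closer together, at 48.4 and 53.2 for regions higher at E12.5 and 57.7 and 53.9 for those higher in enterocytes. For the 81 and 52 regions called without enterocyte replicate 1, the median percentiles in E14.5 replicate 1 were 71.0 and 33.0, and in ISC 33.0 and 45.9 against 74.1 and 69.1. The sets were thus farther apart in ISC in that fit. These are descriptions over regions, with no test.

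Most regions that ranked higher in a stage were also longer in it, relative to the rest of their list. Of the 311 regions that ranked higher in enterocytes, 251 had a greater relative length there, with a median log2 difference of 0.55. Of the 377 that ranked higher at E12.5, 85 had a greater relative length in enterocytes, with a median log2 difference of -0.53. Over the regions not called the median was 0.05. Spearman's rho between the difference in rank and the difference in length was 0.307 over the 9565 shared regions and 0.333 over the 12631 without enterocyte replicate 1, and both measures come from the same peaks of the same libraries.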

How the data were processed

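The deposited data are lists of broad peaks, 1 per H2A.Z library and not pooled, each called against input. Per the file headers, the caller was MACS 2.1.0.20140616 with its broad option, a q cutoff of 0.05 and model folds between 10 and 30, run on reads without duplicates. Alignment to mm9 is named in the submitters' processing notes, with bcl2fastq 1.8.4, Bowtie 1.1.2 and SAMtools 1.2. The pileup of a peak is a coverage signal, the fold enrichment a ratio to local background, and the −log10 p and −log10 q its evidence, all deposited by the authors for single peaks of 1 list. They served only for ranks, filters and descriptions inside a list. Reads are extended to the fragment size that MACS estimates, which sets the smallest peak width and the height of the pileup.

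Peaks of the 4 lists on chromosomes 1 to 19 were merged where they overlapped by 1 bp or touched. Shares have 95% Wilson intervals. A peak of the other lists counted with an overlap of at least 1 bp. For the shared regions, log2 summed length relative to the list median, and normal scores of the rank of the highest fold, were fitted with limma 3.58.1 (R 4.3.3) over the 4 libraries and adjusted over all shared regions by the Benjamini-Hochberg method, and both fits were tested on simulated data. With 200 simulated regions shifted by 1, 2 and 3 units of normal score, the rank fit found 0%, 29.0% and 93.5% of them. Every simulated region had the same spread within a stage, so these shares need not hold for real regions. Other values were computed in Python 3.11.15 with scipy 1.17.1. Named regions were the 10 of each stage alone with the highest lower percentile of their 2 libraries, the 5 with the greatest difference in each direction of each fit (for length, among those whose groups do not overlap), the 3 longest and the longest runs. Alternatives were joining within 500 bp, coverage of at least 50% of a region, −log10 q of at least 10, lists of equal length, other measures of rank and length, the replicate number as a block, and each library left out in turn. A −log10 q of at least 2 was chosen after seeing the data, as were the alternatives for the strongest 10% of peaks, for presence in other lists, and for position, paths and called regions without enterocyte replicate 1.

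The regions, lists and tests were chosen with earlier results of these data known. Same-numbered libraries of the 2 stages did not deviate together (correlation −0.0836 for length and −0.0441 for rank), so the numbers were not taken to pair them. An mm9 genome or annotation was not used here, and neither were the gene and marker lists planned for it.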

Additional observations from a re-analysis of the deposited data

Results flagged for a closer look

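The X chromosome lies outside the comparison of chromosomes 1 to 19. It held 675 regions of the 4 lists, of which 206 (30.5%) were in both E12.5 lists and neither enterocyte list and 8 (1.19%) were in both enterocyte lists and neither E12.5 list. All 4 lists had 104 (15.4%). The share of a list's peaks that lay on X was 2.29% and 2.33% at E12.5 and 1.00% and 1.69% in enterocytes. The enterocytes came from males and the labels give no sex for the embryos, so the sex and the stage of the cells cannot be told apart here. Signal in a region that the comparison does not use is what marked these values, and they were not tested.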

How the results depend on the processing

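E12.5-only regions numbered 2771 (13.5% of the regions formed) with lists of equal length and 6317 to 11378 (18.7 to 35.9%) with 1 library left out. Enterocyte-only regions numbered 485 (1.43%) when lists had to cover 50% of a region and 596 (2.12%) at a −log10 q of at least 2. They numbered 1250 to 5825 (3.95 to 17.3%) with 1 library left out. Shared regions numbered 3348 (9.88%) with 50% coverage. Of enterocyte-only regions, both ISC lists held 86.1% at −log10 q of at least 2, 90.5% with equal lists and 53.6 to 84.8% with 1 library left out, and E14.5 replicate 1 held 13.6%, 28.1% and 4.88 to 17.6%. Of E12.5-only regions, both ISC lists held 52.1%, 71.6% and 29.5 to 57.6%, and E14.5 replicate 1 held 57.7%, 77.9% and 30.7 to 57.1%. The difference in median peak width was −376.5 to 68.5 bp with 1 library left out, the positive value being that without enterocyte replicate 1. Unmatched peaks among the strongest 10% were 9.42 to 20.5% and 10.4 to 21.5% in the E12.5 lists and 2.69 to 4.18% and 1.29 to 2.48% in the enterocyte lists with 1 library left out. By −log10 p they were 6.71% and 5.86% at E12.5, and with equal lists 13.0% in each E12.5 list, 5.95% and 2.62% in enterocytes.

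Length calls numbered 118 by rank of length, 288 with the replicate block and 0 to 1913 with 1 library left out, the highest without enterocyte replicate 2. Rank calls numbered 340 at −log10 q of at least 2, 375 with equal lists and 133 to 548 with 1 library left out, the lowest without enterocyte replicate 1 and 196 without enterocyte replicate 2. With the replicate block they numbered 850 (8.89%) and held all 688. That was close to fixed in advance, since the block fit has the same libraries and the same differences. The share of rank calls was 4.59% of 7407 regions at −log10 q of at least 2 and 4.70% of 7978 with equal lists. The cause of these shifts was not tested. A −log10 q of at least 10 left 0 peaks in enterocyte replicate 1 (5529, 1719 and 1545 in the other lists), so presence, length, rank and width could not be fitted with it. Of the values for named regions, all 90 for E12.5-only regions and 86 for enterocyte-only regions kept their call and 4 did not. Most of these settings could hardly undo a call. Leaving out a list or the weaker peaks adds no peak of the other stage, and the regions were named for their strength. All 4 lost calls came with coverage of at least 50%. For rank, 53 of those higher in enterocytes and 49 of those higher at E12.5 kept their call, 3 and 4 did not, and none changed direction. Their direction was close to fixed in advance, since these fits reuse the lists that made the calls. Named rank and length regions no longer shared under an alternative gave no value and are not counted. At −log10 q of at least 2, only 4 of the 5 rank regions higher in enterocytes and 1 of the 5 higher at E12.5 had a value. With equal lists 2 of the 5 in each direction did. The named length regions, none of which was called, became called in 15 values for those longer in enterocytes and 18 for those longer at E12.5, all 10 by rank of length and all 10 with the replicate block.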
